A study of Mus musculus with 8 samples.

Results

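Older LINE-1 families of the mouse testis were followed across a Dnmt3C mutation. They were taken by name from the repeat tables, as every family whose name begins with L1 or Lx apart from the young families L1Md_T, L1Md_A and L1Md_Gf. This gave 120 of the 903 repeat families of the series. Of these, 36 have rodent-specific names and 84 have ancient names. The rodent-specific names are 21 Lx families, 9 with names in L1_Mus, L1_Mm, L1_Mur or L1_Rod, 3 L1VL families and the 3 L1Md_F families. The ancient names are 82 families beginning with L1M and a capital letter, a digit or nothing further, and 2 beginning with L1P. The grouping rests on names alone. Divergence of the copies was not measured here.

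Whole testis RNA came from male mice on a C3H/HeJ - C57BL/6J hybrid background. Mutants were homozygous for an IAP insertion in Dnmt3C (IAP/IAP). Controls were heterozygous (IAP/WT) and so carried 1 copy of the same insertion. An IAP is an endogenous retrovirus of the mouse. At 16.5 days post coitum (dpc) and at 10 days post partum (dpp) there was 1 library per genotype, and at 20 dpp there were 2, which makes 8 libraries in 6 groups. Between 57166311 and 155742823 reads were counted on genes in a library, and reads on repeat families made up from 2.34% to 5.52% of a library's counted reads. All 120 families were listed at 10 and 20 dpp and 118 at 16.5 dpc. Dnmt3C itself was not analysed here, which leaves the labels without a check by the targeted gene.

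LINE-1 elements are retrotransposons that copy themselves through an RNA intermediate, using proteins they encode. New families replace old ones over evolutionary time, and copies of an old family are mostly truncated and mutated, so that they no longer move. Such copies lie scattered through introns, untranslated exons and intergenic DNA, and reads from them can be part of a host gene's transcript as well as of an element's own. In male germ cells, DNA methylation, repressive histone marks and the piRNA pathway silence LINE-1 promoters. DNMT3C is a rodent DNA methyltransferase of the male germ line that acts on promoters of young retrotransposons.

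Values are reads divided by a scaling factor of the library within its age, called normalised reads below. They are not divided by length or copy number, so their order between families is not an order of expression per copy. At 20 dpp the mean reads of a family ranged from 24.5 to 154872 per library, with a median of 14886 over rodent-specific names and 1230 over ancient names. Of the 120 families, 2 had under 50 reads on average.

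The first comparison asks which older families differed between mutant and control testis at 20 dpp. Most did not pass the test. Among older families L1_Mm rose most, and Lx2A1, a rodent-specific family of the Lx group, had the lowest p of the falls. Of 120 families, 5 rose (4.17%) and 7 fell (5.83%) at an adjusted p below 0.05 in limma, a moderated linear model fitted to genes and families together with Benjamini-Hochberg adjustment over 888 families. Among all 888 families 11.9% passed, with 4.73% higher and 7.21% lower in mutants, so older LINE-1 families passed at about the background share in both directions. Without adjustment, 39 of the 120 had a p below 0.05 in limma, 24 higher and 15 lower. Over all 888 families 261 did, 127 higher and 134 lower.

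Rodent-specific and ancient names differed in where their families lay. Among rodent-specific names 2 rose and 4 fell of 36, and the median log2 change, mutant minus control, was -0.017. Among ancient names 3 rose and 3 fell of 84, and the median was 0.32. The median over all families was 0.13. In ancient families both mutant libraries lay above both controls in 46 of 84 and below in 16. In rodent-specific families they lay above in 11 and below in 9 of 36. Over all 888 families, 36.9% had both mutant libraries above and 26% had both below. The ancient median stood 0.33 above the rodent-specific median. That gap was 0.27 in mutant replicate 1 and 0.39 in mutant replicate 2, measured against the control mean, while the controls stood 0.021 to either side of 0. No test of this gap was run, because families of a class are not replicates.

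The direction of the rodent-specific median depended on the scaling, while the ancient median was positive under each scaling run, from 0.21 to 0.91. A scaling moves all families of a library alike, so it shifts both classes and leaves the gap between them as it is. When libraries were scaled by their total reads on genes, the median gene moved from a log2 change of 0.049 to 0.64. With it 88 of 120 older families rose and 2 fell, against 374 and 39 of all 888 families. Under the deposited scaling the rodent-specific median stood at -0.066 relative to the median gene and the ancient median at 0.27. Scaling over the repeat families alone gave 2 higher and 7 lower, against 28 and 66 of all families. TMM, a trimmed-mean scaling, gave 7 and 6, against 47 and 57. Rises and falls below are therefore relative to the deposited scaling.

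**Figure D1:**
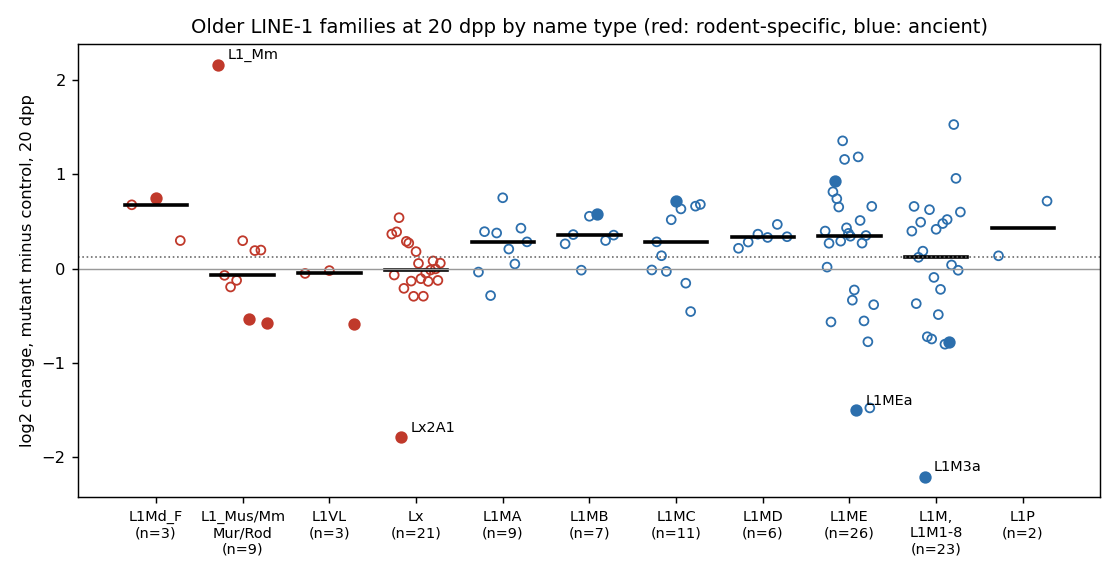
Log2 change, mutant minus control, of each of the 120 older LINE-1 families at 20 dpp (y axis), grouped by name type (x axis). Filled points passed at an adjusted p below 0.05, black bars are medians of a type, and the dotted line is the median of all 888 families, 0.13. The bars of the L1_Mus, L1VL and Lx types sit between -0.07 and -0.01, and those of the L1MA to L1ME types between 0.28 and 0.36.

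Within the rodent-specific names the 3 L1Md_F families had the highest median log2 change, 0.68, and ranged from 0.30 to 0.75. Medians were -0.070 over the 9 L1_Mus, L1_Mm, L1_Mur and L1_Rod names, -0.050 over the 3 L1VL families and -0.014 over the 21 Lx families. Ancient medians were closer together. They were 0.28 for L1MA, 0.36 for L1MB, 0.28 for L1MC, 0.34 for L1MD, 0.35 for L1ME and 0.12 for L1M names with a digit or no suffix. The L1MD type varied least, and its 6 families ranged from 0.22 to 0.47. The L1ME type, with 26 families, ranged from -1.50 to 1.36. The separation of the groups differed by type in the same way. Both mutants lay above both controls in 6 of 7 L1MB, 6 of 11 L1MC, 4 of 6 L1MD, 5 of 9 L1MA and 16 of 26 L1ME families. They lay below in 0 L1MB, 1 L1MC, 0 L1MD, 1 L1MA and 7 L1ME families. Among L1M names with a digit or no suffix, 8 lay above and 7 below of 23, and among Lx families 6 above and 4 below of 21. Over all 888 families 36.9% lay above and 26% below, and differences between these small types were not tested. The L1MA family nearest to the threshold was L1MA5A, with 1627 and 1686 normalised reads in mutants and 1046 and 923 in controls, a log2 change of 0.75 (adjusted p = 0.0567 in limma).

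HAL1 families, relatives of LINE-1 outside the name rule, had a median of 0.20, and L2 families, an older LINE group, had a median of 0.037. None of the 4 HAL1 or 4 L2 families passed in limma, and none had an unadjusted p below 0.05.

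L1_Mm rose the most among older families that passed. It had 27837 and 13804 normalised reads in mutant replicates 1 and 2, against 4885 and 3909 in the controls. Both mutants were above both controls, and replicate 1 was 2.02 times replicate 2. The log2 change was 2.17 ± 0.30 (moderated SE, n = 2 and 2, adjusted p = 0.00519 in limma), a 4.48-fold rise. The young families, for comparison, rose 8.57-fold (L1Md_T), 8.59-fold (L1Md_Gf) and 7.02-fold (L1Md_A). Without mutant replicate 1 the log2 change of L1_Mm was 1.66, and without mutant replicate 2 it was 2.67.

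L1Md_F2, the most read of the older families, had 199798 and 156202 normalised reads in mutants and 117323 and 93489 in controls. Its groups did not overlap, and it rose by a log2 change of 0.75 ± 0.18 (SE, adjusted p = 0.0374 in limma). The other two L1Md_F families did not pass. L1Md_F had 16795 and 13131 normalised reads in mutants against 10693 and 8060 in controls, a log2 change of 0.68 (adjusted p = 0.0567). L1Md_F3 had 47316 and 30522 against 34160 and 27952, so mutant replicate 2 lay between the controls.

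Lx2A1 fell more than any other rodent-specific family. It had 2538 and 2388 normalised reads in mutants, against 9161 and 7896 in controls. Replicates were close to each other, and the groups were far apart. The log2 change was -1.79 ± 0.15 (SE, n = 2 and 2, adjusted p = 0.000497 in limma), a 3.45-fold fall. None of the other 20 Lx families passed, and their changes ran from -0.29 to 0.54. The closely named Lx2A, with 1543 and 1367 normalised reads in mutants and 1198 and 831 in controls, had both mutants above both controls and a change of 0.54 (adjusted p = 0.197).

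The further rodent-specific families L1VL4, L1_Rod and L1_Mus2, passed with smaller falls. L1VL4 had 20943 and 18674 normalised reads in mutants and 30726 and 28825 in controls, a log2 change of -0.59 (adjusted p = 0.0215 in limma). L1_Rod had 8280 and 9747 against 14283 and 12627, a change of -0.58 (adjusted p = 0.0401). L1_Mus2 had 41208 and 36709 against 60379 and 52303, a change of -0.53 (adjusted p = 0.0448). In each, both mutants lay below both controls. When libraries were scaled by total reads on genes, these changes became 0.0063, 0.016 and 0.065.

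Ancient families that rose were L1MC4a, L1MB5 and L1ME3B, in each of which the groups did not overlap. L1MC4a had 2871 and 3386 normalised reads in mutants and 1922 and 1855 in controls, a log2 change of 0.72 (adjusted p = 0.0379 in limma). L1MB5 had 6758 and 7998 against 5003 and 4838, a change of 0.58 (adjusted p = 0.043). L1ME3B had 1267 and 1213 against 731 and 580, a change of 0.93 (adjusted p = 0.0482). With scaling over the repeat families alone none of these rises passed (adjusted p = 0.15, 0.203 and 0.12).

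Ancient families that fell were L1M4c, L1M3a and L1MEa, again without overlap between groups. L1M4c had 3339 and 4029 normalised reads in mutants and 6314 and 6273 in controls, a log2 change of -0.78 (adjusted p = 0.0175 in limma). L1M3a was rare, with 19.9 and 31.5 in mutants and 134 and 107 in controls, a change of -2.21 ± 0.51 (SE, adjusted p = 0.0345). L1MEa had 111 and 91.6 against 275 and 301, a change of -1.50 (adjusted p = 0.0444). L1M3a rested on 28 and 32 reads in the mutants. With scaling by gene reads L1M3a still passed (adjusted p = 0.0321), while L1M4c, at -0.18, and L1MEa, at -0.91, did not (adjusted p = 0.358 and 0.0856).

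L1_Mm and Lx2A1 passed under all alternatives run that kept every library. With 1 library left out, the log2 change ran from 1.66 to 2.67 for L1_Mm and from -1.90 to -1.68 for Lx2A1. Calls from such fits are not compared here, since their spread comes from the other group alone. Without a trend in the spread 6 older families passed, of which 4 were among the 12, against 105 of all 888 families. With families fitted apart from genes 31 older families passed, which held all 12, against 239 of all 888.

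The most read families of the Lx and ancient types did not pass. Lx9, the most read Lx family, had 41695 and 46530 normalised reads in mutants and 44966 and 39773 in controls, with overlapping groups and a log2 change of 0.059. The log2 changes of Lx7 and Lx8 were 0.082 and -0.0024. L1_Mus1 and L1_Mus3, next to L1Md_F2 in reads among the other rodent-specific names, had changes of 0.30 and 0.19. Among L1M names, the values were -0.22 for L1M4, -0.37 for L1M2 and -0.016 for L1MB3. The 2 L1P families, L1PB4 and L1P5, had changes of 0.72 and 0.14. Adjusted p-values of these 10 families in limma ran from 0.149 to 0.995.

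Mutant replicates differed from each other, and the side differed by name type. Mutant replicate 1 lay below mutant replicate 2 in most older families and above it in 26 of 120, of which 15 were rodent-specific and 11 ancient. Over all families it lay above in 237 of 888, so most families outside the LINE-1 list were lower in replicate 1 as well. In L1MB, L1MC and L1MD no family was higher in replicate 1, and median ratios of replicate 1 to replicate 2 were 0.813, 0.787 and 0.838. Among the 9 L1_Mus, L1_Mm, L1_Mur and L1_Rod names 5 were higher in replicate 1, with a median ratio of 1.00. All 3 L1Md_F families were higher in replicate 1, as were all 3 young families, and L1Md_A was 5.99 times higher there. By a rule of at least 1.5-fold with a counting interval excluding 1 and at least 50 reads, 9 older families differed between the mutants, against 12.6% of all families, and 4 at 2-fold, against 4.95%. The same number, 9, differed between the controls, against 14% of all families, and 3 at 2-fold, against 5.52%.

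**Figure D2:**
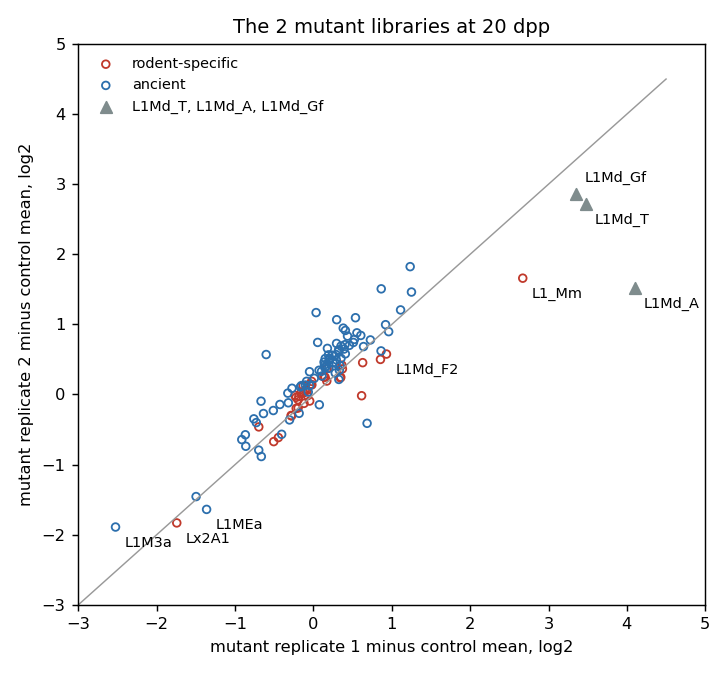
Log2 difference of mutant replicate 1 (x axis) and mutant replicate 2 (y axis) from the mean of both controls at 20 dpp, for the 120 older LINE-1 families (circles) and the 3 young families (triangles). On the diagonal both mutants differ from the controls alike. L1_Mm lies below it, on the side of the young families, and Lx2A1 lies near it.

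Cell markers moved with genotype at 20 dpp. All 15 Sertoli cell markers rose (median log2 change 1.03), and all 13 listed markers of pachytene and later spermatocytes fell (median -6.93), with summed normalised reads of 33427 and 25040 in mutants against 1613420 and 1405300 in controls. All 10 listed spermatid markers fell (median -6.19). Of 14 early meiosis markers 9 fell and 3 rose, and of 14 markers of undifferentiated spermatogonia and gonocytes 6 rose and 2 fell. Among 6 markers of differentiating spermatogonia 4 rose and 1 fell. Beside these counts, 26.4% of all 17194 genes rose and 33.1% fell. In whole testis, fewer cells of a type and less RNA per cell cannot be told apart, and the part of cell makeup in the changes of LINE-1 families was not tested.

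Some markers of other cells set mutant replicate 1 apart from its partner. For the 6 peritubular myoid markers the sum was 123977 in mutant replicate 1 and 60903 in mutant replicate 2, against 38075 and 53864 in controls, and 3 of the 6 rose. For the 8 Leydig cell markers it was 100495 and 60601 against 46435 and 98804, and 1 rose. For duct epithelium, 3 of 9 markers were listed, with sums of 12587 and 152 in mutants and 2331 and 871 in controls, and none passed in limma or had an unadjusted p below 0.05. Leukocyte markers summed to 17027 and 14793 against 7599 and 13737, with 3 of 8 higher. Endothelial markers summed to 6470 and 6226 against 5055 and 5612, with 2 of 6 higher and 1 lower. With 26.4% of all genes higher and 33.1% lower, the counts of these short lists say little by themselves. Without mutant replicate 1, the median log2 change was 0.041 over rodent-specific names, 0.43 over ancient names and 0.23 over all families. Whether these markers bear on the LINE-1 families was not tested.

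Genes that restrict LINE-1 were followed in a list of 48 names, in which Hells also stands under its other name Lsh. Values were listed for 46 genes and not for Spocd1. At 20 dpp 10 rose and 24 fell, with a median log2 change of -0.56. Over all 17194 genes 26.4% rose and 33.1% fell, and the median was 0.049. With scaling by gene reads, 21 of the list rose and 19 fell. Before 20 dpp the list's median log2 ratio was 0.20 at 16.5 dpc and -0.022 at 10 dpp.

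The falls of lowest p in that list were in genes of the piRNA pathway. Piwil1, which encodes the PIWI protein of pachytene spermatocytes and is also among the pachytene markers above, lies in mm10 on chromosome 5 from 128702524 to 128755474. It had 1465 and 895 normalised reads in mutants and 152482 and 151655 in controls, a log2 change of -7.05. Pld6, which encodes a mitochondrial protein of piRNA production, changed by -3.90, Tdrd5, a tudor-domain gene of the same pathway, by -3.54, and Mael, a germ-granule gene, by -3.30.

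The rises of lowest p were in chromatin and RNA-editing genes. Suv39h1, an H3K9 methyltransferase gene on chromosome X from 8061171 to 8074760, had 11043 and 9985 normalised reads in mutants and 3741 and 4119 in controls, a log2 change of 1.42. Adar, which encodes an adenosine deaminase acting on RNA, rose by 1.18, Hells, a chromatin remodeler gene needed for DNA methylation, by 0.85, and Dnmt3a, a de novo DNA methyltransferase gene, by 1.05. These 8 genes passed in limma with adjusted p at or below 0.000835. Whether the changes of this list bear on the LINE-1 families was not tested.

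The second comparison asks how older families compared at 10 dpp. Each genotype had 1 library, and there is no test. Ratios below are mutant over control with exact binomial 95% intervals, which cover counting error only. They compare the libraries, not the genotypes. Of 120 families, 1 was listed at 1.5-fold or more, against 3.89% of all 823 families, and none reached 2-fold, against 1.82%. The listed family was L1ME3C, an ancient family with 69 reads in the mutant and 39 in the control and a ratio of 1.84 (1.23 to 2.80).

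Rodent-specific families lay slightly on the mutant side at 10 dpp. In 31 of 36 the ratio was above 1, and the interval lay wholly above 1 in 28, with a median log2 ratio of 0.067. Ancient families had a median of 0.034, and in 52 of 84 the ratio was above 1. Over all 823 families the ratio was above 1 in 408 and the interval wholly above 1 in 119, with a median of -0.0021. Spread between replicates cannot be seen at this age, and at 20 dpp all 36 rodent-specific families were higher in control replicate 1 than in control replicate 2, with a median log2 ratio of 0.25. So were 697 of all 888 families, with a median of 0.22.

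L1_Mm was also among the highest ratios at 10 dpp. It had 3471 normalised reads in the mutant and 2546 in the control, a ratio of 1.36 (1.29 to 1.43). Among families with at least 200 reads in both libraries together, only L1M3de was higher, at 1.43 (1.08 to 1.90), and L1M3c followed at 1.27 (0.979 to 1.66). L1Md_T, L1Md_A and L1Md_Gf, the young families, had ratios of 1.77, 2.57 and 2.24. The lowest ratios were in L1ME3D at 0.756 (0.630 to 0.908), L1M2c at 0.758 (0.613 to 0.936) and L1MEa at 0.813 (0.623 to 1.06). Lx2A1, which fell at 20 dpp, had 886 and 906 normalised reads and a ratio of 0.978 (0.891 to 1.07).

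At 16.5 dpc, the third comparison, the mutant and control libraries were again close. Of 118 families, 1 was listed at 1.5-fold, against 2.48% of 806 families, and none reached 2-fold, against 0.496%. The listed family was L1M2a, an ancient family with 155 reads in the mutant and 190 in the control and a ratio of 0.628 (0.505 to 0.781). Median log2 ratios were -0.035 over rodent-specific names, -0.090 over ancient names and -0.087 over all families.

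At this age L1_Mm had the highest ratio among families with at least 200 reads. It had 2878 normalised reads in the mutant and 2281 in the control, a ratio of 1.26 (1.19 to 1.33). The young L1Md_T, L1Md_A and L1Md_Gf stood at 1.00, 0.957 and 1.13 (1.04 to 1.24 for the last) at this age. L1M3d followed at 1.19 (0.889 to 1.60) and L1MCc at 1.17 (0.971 to 1.40), and both intervals held 1. L1M3e, at 0.759 (0.650 to 0.886), and L1ME3D, at 0.760 (0.628 to 0.919), were the lowest after L1M2a. Lx2A1 had 792 and 823 normalised reads, a ratio of 0.962 (0.872 to 1.06).

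**Figure D3:**
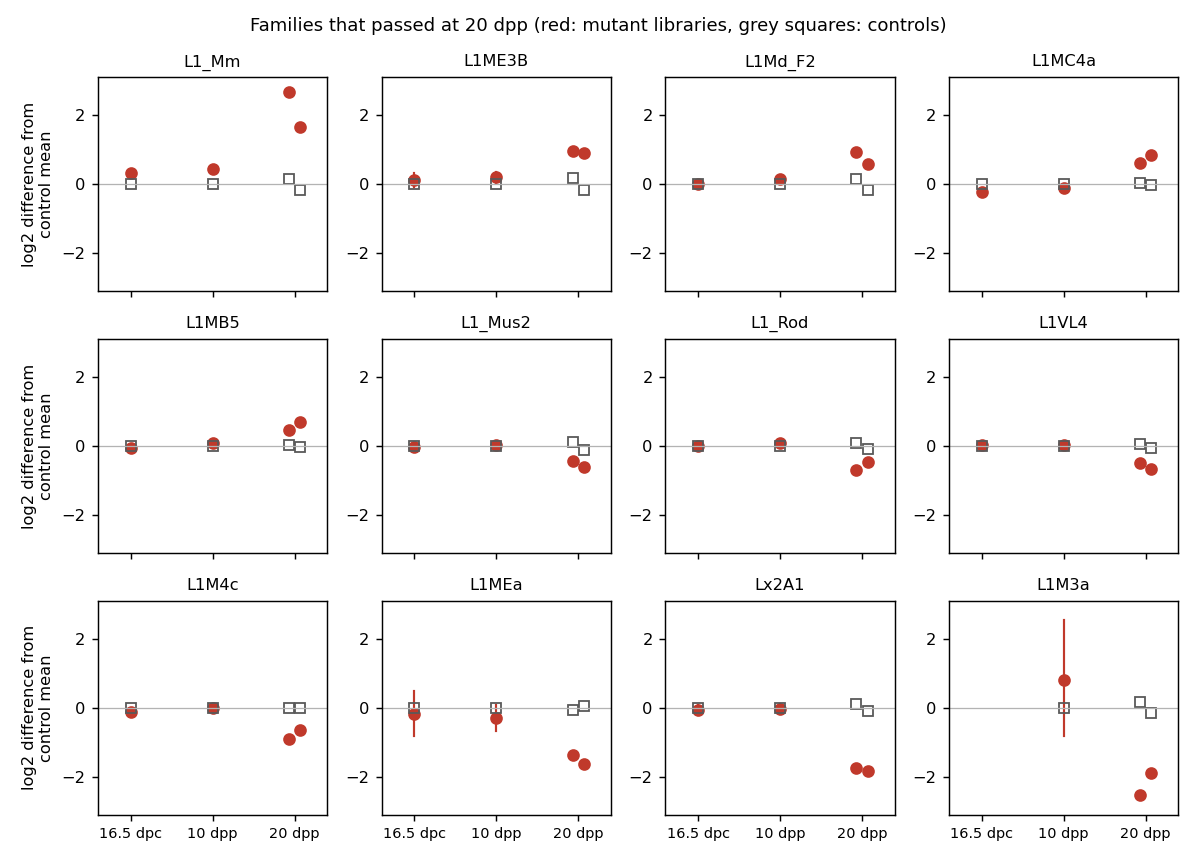
Log2 difference from the control mean of the same age (y axis) for the 12 families that passed at 20 dpp, at each age (x axis). Points are mutant libraries, squares are controls, and lines at the first 2 ages are 95% counting intervals. L1M3a was not listed at 16.5 dpc. At the first 2 ages L1_Mm lies above the control line, with ratios of 1.26 and 1.36, and L1MEa lies below it at 10 dpp, at 0.813, with an interval that holds 1. The rare L1M3a had 10 and 6 reads at 10 dpp, and Lx2A1 had ratios of 0.962 and 0.978.

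The fourth comparison asks whether the genotype difference itself changed with age. Of 118 families listed at every age, Lx2A1 passed in limma for the difference between 20 and 10 dpp (log2 -1.76 ± 0.29, SE, adjusted p = 0.0378) and between 20 dpp and 16.5 dpc (-1.73 ± 0.29, adjusted p = 0.0358). Over 785 families 1.78% and 2.04% passed these contrasts. For L1_Mm the differences were 1.72 (adjusted p = 0.222) and 1.83 (adjusted p = 0.165). The lone libraries of the first 2 ages were assumed to vary like those at 20 dpp. In simulated data the contrast of 20 and 10 dpp called 2 of 20 planted 2-fold changes. Families that did not pass are therefore not shown to be unchanged with age. Lx2A1 passed neither contrast when the spread had no trend (adjusted p = 0.128 and 0.0966), without control replicate 1 (0.115 and 0.135) or without control replicate 2 (0.0787 and 0.0657), and with scaling by gene reads it missed the first (0.0517).

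A fit of 1 genotype effect over all 8 libraries, with age as a block, called none of the 118 families, and 0% of 785 families passed it in limma. Unadjusted p was below 0.05 in 4 older families, 1 higher and 3 lower, and in 42 of all 785 families. L1_Mm had a log2 change of 1.28 (adjusted p = 0.703) and Lx2A1 one of -0.92 (adjusted p = 0.703) in this fit.

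**Figure D4:**
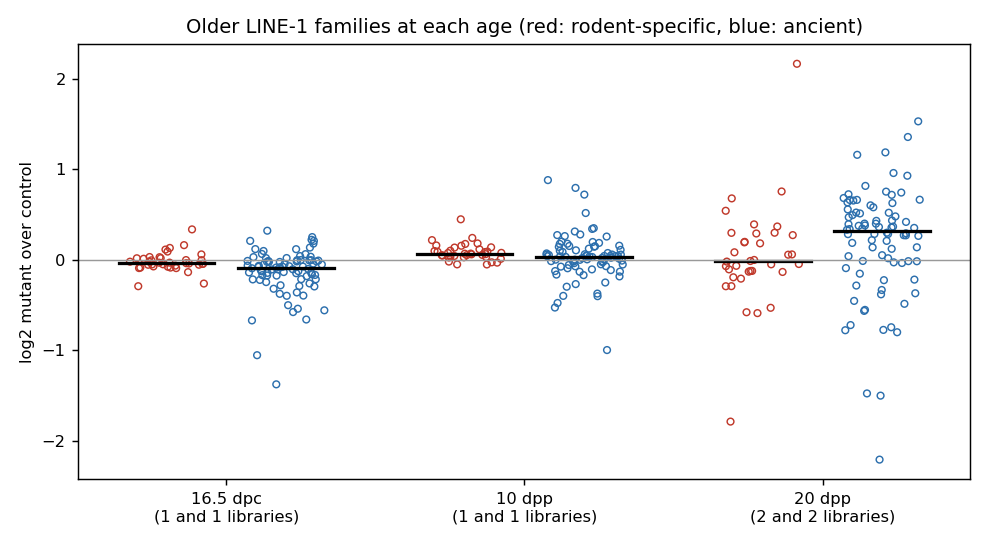
Log2 mutant over control of each older LINE-1 family (y axis) by age (x axis), rodent-specific names left and ancient names right within an age, with bars at the medians. The first 2 ages have 1 library per genotype and 20 dpp has 2. The medians of the classes lie at -0.035 and -0.090 at 16.5 dpc, 0.067 and 0.034 at 10 dpp, and -0.017 and 0.32 at 20 dpp.

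Levels by age were compared in RPM, reads scaled to the total of counted reads of a library, since ages were scaled apart, and without a test. Most counted reads are gene reads, and with scaling by gene reads the median gene had a log2 change of 0.64 at 20 dpp. At that age RPM therefore sets mutants higher against controls than normalised reads do. Lx2A1 was low at the first 2 ages, with 11.8 RPM in the mutant and 12.2 RPM in the control before birth and 12.9 and 13.3 RPM at 10 dpp. At 20 dpp it stood at 62.1 and 57.1 RPM in controls and at 26.4 and 24.2 RPM in mutants. The control mean at 20 dpp was 4.47 times the control at 10 dpp, and the mutants at 20 dpp lay above all libraries of the earlier ages. Few older families shared that course in controls. In 92 of 120 the control mean at 20 dpp was below the control at 10 dpp, and 4 reached 2-fold higher. The median ratio was 0.738 (0.791 over rodent-specific and 0.650 over ancient names). Repeat families as a whole were lower too, with 3.31% of counted reads in the 10 dpp control and 2.51% and 2.34% in the 20 dpp controls. The same counts over all families were not made, so whether the drop is particular to older LINE-1 families was not tested.

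L1_Mm had another course, with similar levels at every age in controls. In order of age it stood at 33.9, 37.5, then 33.1 and 28.3 RPM in controls, and at 42.8, 50.5, then 290.0 and 140 RPM in mutants. L1Md_F2 stood at 761, 829, then 795 and 676 RPM in controls and at 759, 913, then 2081 and 1581 RPM in mutants. L1_Mus1 was lower at each later age in both genotypes. It went from 799 to 655 and then 339 and 317 RPM in controls and from 778 to 681 and then 622 and 562 RPM in mutants. In normalised reads at 20 dpp its log2 change was 0.30 (adjusted p = 0.17 in limma).

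As a share of all reads on repeat families, older LINE-1 families were lower in the mutants at 20 dpp. They took 20.6% and 21.3% of family reads in mutants and 28.7% and 27.9% in controls. At 10 dpp the shares were 26.1% and 28.0%, and at 16.5 dpc 32.9% and 32.4%. The 3 young families took 28.8% and 12.8% in the 20 dpp mutants and 3.61% and 3.22% in controls. A share falls when another family's share rises. Of reads outside the young families, older families took 29.0% and 24.4% in mutants and 29.8% and 28.8% in controls, so mutant replicate 1 then lay between the controls.

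Summed normalised reads of all older families gave a different picture from the shares. The sums were 1091860 and 1076640 in mutants and 1064770 and 903037 in controls at 20 dpp, a ratio of means of 1.10. The mutants were above both controls, but by less than the controls differed from each other. The ratio was 1.10 for rodent-specific and 1.10 for ancient names, 0.998 for Lx families and 9.14 for the young families. A sum follows its most read families. Rodent-specific means were 872794 in mutants and 791113 in controls, of which L1Md_F2 alone held 178000 and 105406. The equal ratios therefore do not make the classes alike, with median log2 changes of -0.017 and 0.32. In RPM, older families stood at 11375 and 10897 in mutants and 7216 and 6532 in controls at 20 dpp. They stood at 9546 and 9260 at 10 dpp and at 9741 and 10092 at 16.5 dpc. The wider gap at 20 dpp in RPM carries the offset of that scaling given above.

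**Figure D5:**
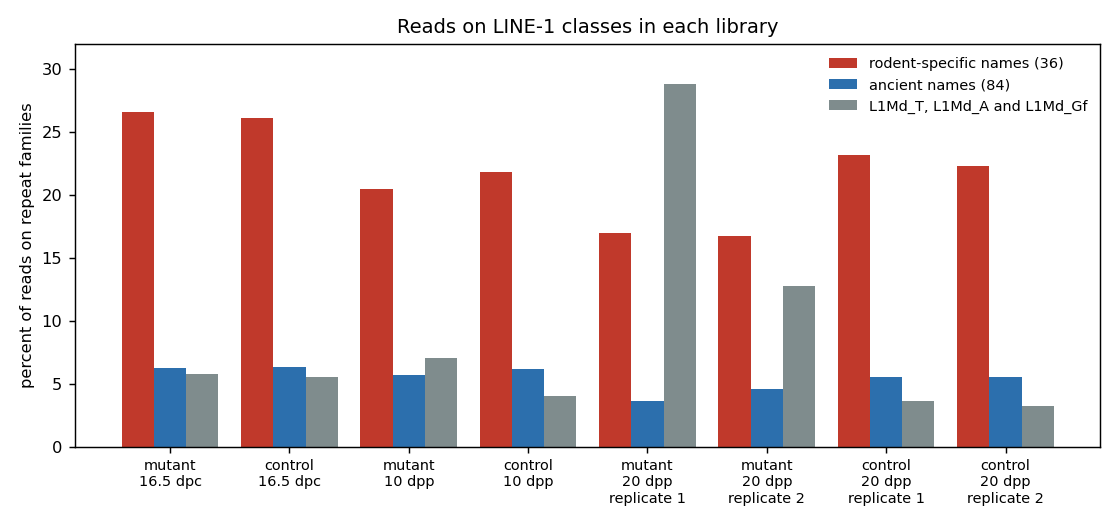
Share of all reads on repeat families (y axis, percent) taken by rodent-specific names, ancient names and the 3 young families in each library (x axis). At 20 dpp rodent-specific names took 17.0% and 16.7% in mutants against 23.2% and 22.3% in controls, ancient names 3.63% and 4.55% against 5.56% and 5.55%, and the young families 28.8% and 12.8% against 3.61% and 3.22%.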

How the data were processed

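Tables, without headers, were deposited per library, for genes and for repeat families. The deposited values are log2 values: each equals log2 of a whole count over a library factor, plus a pseudocount of 1. Of 145760 values, 100% gave a whole read number within 0.01 reads. Median-of-ratios factors, recomputed within each age over genes and families, matched the deposited factors. The submitters' processing notes name mm10, TopHat2 2.0.6, HTSeq 0.6.1 and Bowtie 1.0.0 without roles. How reads mapping to many copies were treated is not given in the sources used here. Families of similar sequence can therefore share reads. Unassigned repeats (a row holding up to 0.011% of family reads) were dropped.

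Limma 3.58.1 in R 4.3.3 was fitted to the log2 values of genes and families together, with a trend (at 20 dpp 2 residual and 5.21 prior degrees of freedom), and adjusted by Benjamini-Hochberg over families at 0.05. On this log2(value + 1) scale, changes of low families are understated. Single libraries were compared by ratios with exact conditional binomial 95% intervals (SciPy 1.17.1). The labels do not tie the libraries to animals. The p-values therefore reflect the spread among these libraries alone, which may be technical. Replicates were not duplicates (chi-square per degree of freedom 171 between mutants and 77.7 between controls).

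The members and gene lists were chosen with earlier results of these data known. Families named were all that passed at 20 dpp, those with the most reads in 4 name groups (3 each where there were 3), the 3 highest and 3 lowest ratios with at least 200 reads at each earlier age, and those whose age contrast passed. Genes named were the 4 of lowest p in each direction of the restriction list. L1Md_F, L1Md_F3, Lx2A, L1MA5A and L1ME3C were named after their values were seen. Gene coordinates come from GENCODE M21. The limma fits and the intervals were tested on simulated data. Of 20 families planted with a 2-fold change, 15 were called at 20 dpp, 20 across ages and 2 in the contrast of 20 and 10 dpp. For the fit across ages the planted change was the same at every age, so this says nothing on changes confined to 20 dpp. Of 20 planted with a 4-fold change, 20, 20 and 18 were called. Alternatives covered scaling, pseudocount, low reads, the spread, families fitted apart, voom weights, left-out libraries and the replicate block.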

Additional observations from a re-analysis of the deposited data

Results flagged for a closer look

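Lx2A1 was picked out because its genotype difference was not the same at all ages by the test of the difference itself. The log2 difference, mutant minus control, was lower at 20 dpp. Subtracting the difference at 10 dpp gave -1.76 (limma, adjusted p = 0.0378), and subtracting that at 16.5 dpc gave -1.73 (adjusted p = 0.0358). Both mutant libraries at 20 dpp lay below both controls, with 2538 and 2388 normalised reads against 9161 and 7896. At the earlier ages the single mutant and control libraries had ratios of 0.978 and 0.962. Each earlier age has 1 library per genotype, whose spread was taken to be that at 20 dpp. Neither contrast passed with no trend in the spread (adjusted p = 0.128 and 0.0966), without control replicate 1 (0.115 and 0.135) or without control replicate 2 (0.0787 and 0.0657), and the first did not pass with scaling by gene reads (0.0517). Both contrasts share the 20 dpp libraries, so they are not independent of each other.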

How the results depend on the processing

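At 20 dpp, 12 older families passed. With scaling by total reads on genes 90 passed, with no trend 6 and with families fitted apart from genes 31; leaving out 1 library gave 2 to 13. Over all 888 families, 106 passed in the main fit, 413 with scaling by gene reads, 105 with no trend and 239 fitted apart. For the age contrasts 1 older family passed in each, against 14 and 16 of all 785 families. With scaling by gene reads 9 and 24 passed, against 66 and 114 of all families, and with no trend 0 and 0, against 0 and 6. With 1 library left out, the log2 contrast of Lx2A1 ran from -1.86 to -1.65 against 10 dpp and from -1.84 to -1.63 against 16.5 dpc. At 10 dpp, 0 families were listed at 2-fold or with at least 200 reads, against 1. At 16.5 dpc, 0 were listed with scaling by repeat families or at 2-fold and 3 with no minimum of reads, against 1. Scaling by gene reads raised all families alike and so turned the sign of L1_Mus2 (0.065), L1_Rod (0.016), L1VL4 (0.0063), L1M4 (0.38), L1MB3 (0.58), Lx8 (0.59) and L1M2 (0.23). The replicate block gave 11 calls at 20 dpp, 10 of them among the 12, against 104 of all families. Samples of a number did not deviate together (r = 0.024 over genes and families). The labels give no pairing, and with 2 libraries per group this check cannot exclude one. A fit without 1 library takes its spread from the other group alone, so its calls are not comparable with those of all 4 libraries. Fits of a single genotype effect over all ages gave 0 calls under the alternatives run. Depth limits the rare ancient families: L1M3a had 10 and 6 reads at 10 dpp.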
